A study of Mus musculus with 6 samples.

Results

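The miR-379, miR-411, miR-329 and miR-495 group comprises microRNAs (miRNAs) encoded side by side in the imprinted Dlk1-Dio3 domain of mouse chromosome 12. Its members were all array names whose stem, without species prefix and arm, is miR-379, miR-380, miR-411, miR-758, miR-329, miR-495, miR-543, miR-299 or miR-494. The array carries miR-299 under the names miR-299a and miR-299b, which were counted as members, so that 12 of the 690 miRNA names on the array belong to the group (10 names when the stem is read letter by letter). The rule used names alone and no measured value, but members were chosen with earlier results of these data known. Expression was measured on 6 arrays of 1 colour, with 3 preparations of weakly GFP-positive cells from skin and 3 preparations of strongly GFP-positive cells from wounds taken 7 days after injury. All cells came from transgenic mice in which GFP reports smooth muscle actin (SMA), a protein of contractile cells, and had been sorted as negative for CD45 (blood cells) and CD31 (endothelium). The submitters call the skin cells fibroblast-like and the wound cells myofibroblasts, the contractile cells that form scar tissue. GFP level and tissue changed together between the groups, and no source used here gives age, sex, strain or whether animals were pooled. Preparations are named by their label numbers: skin has 1, 2 and 5, wound has 3, 4 and 6. No label ties them to separate animals, and the p-values therefore cover the spread among preparations only, part of which may be technical.

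A miRNA is cut from a hairpin precursor whose 5p and 3p arms can each give a mature strand, and the strand's seed, bases 2 to 8 from its 5′ end, guides it to complementary sites in messenger RNAs. The hairpins of this group lie in the large miRNA cluster of the domain, which is transcribed from the maternal chromosome as part of long noncoding RNA and is best known from brain, placenta and embryo. Several of its miRNAs, miR-329, miR-494 and miR-495 among them, have been studied for their part in the growth of blood vessels after ischaemia, and the cluster around miR-379 in kidney fibrosis of diabetes.

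The mature sequences, from RefSeq on GRCm38.p6, are shown in gene order with the seed in capitals because the members are grouped by seed and by shared stretches in what follows. All 12 names matched the table, and the prefix mmu- (mouse) is dropped in most places after this list.
mmu-miR-379-5p: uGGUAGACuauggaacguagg
mmu-miR-411-5p: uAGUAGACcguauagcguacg
mmu-miR-411-3p: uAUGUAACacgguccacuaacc
mmu-miR-299a-3p: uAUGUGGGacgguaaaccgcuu
mmu-miR-299b-5p: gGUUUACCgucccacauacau
mmu-miR-380-5p: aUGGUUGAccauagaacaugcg
mmu-miR-380-3p: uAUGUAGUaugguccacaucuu
mmu-miR-758-3p: uUUGUGACcugguccacua
mmu-miR-329-3p: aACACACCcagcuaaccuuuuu
mmu-miR-494-3p: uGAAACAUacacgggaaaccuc
mmu-miR-543-3p: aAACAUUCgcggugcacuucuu
mmu-miR-495-3p: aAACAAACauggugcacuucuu

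Complete seeds were not shared within the group, as the 12 names carry 12 seeds. The closest pair was miR-379-5p and miR-411-5p, whose seeds share 6 bases and differ by G2A, with positions counted from the 5′ end and miR-379-5p given first. The seeds of miR-543-3p and miR-495-3p share 5 bases, and the last 12 bases of these miRNAs are identical, shown here in capitals because a probe aimed at the 3′ part could hold both.
miR-495-3p: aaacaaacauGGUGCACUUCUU
miR-543-3p: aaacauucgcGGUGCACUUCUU

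The hairpins occupy 9.76 kilobases of the plus strand at chr12:109709060-109718816 (GRCm38.p6) from Mir379 to Mir495. Within that stretch the RefSeq table places 14 miRNA genes, 10 of them of this group and 4 others (Mir1197, Mir323, Mir679 and Mir1193). Mir299b is the exception to the strand and lies on the minus strand inside Mir299a, and the whole of miR-299b-5p is contained in miR-299a-5p, an arm for which the array has no name. The shared 21 bases are capitalised here, since a probe for the first sequence cannot tell it from the second.
miR-299b-5p: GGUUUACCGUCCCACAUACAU
miR-299a-5p: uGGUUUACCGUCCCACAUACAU

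Of the 20 mature arms that the table lists for these 10 hairpins 12 are on the array. Both arms are present for miR-411 and miR-380 alone, whose hairpins are shown with these arms in capitals, miR-411 at chr12:109710175-109710256 and miR-380 at chr12:109711803-109711863.
Mir411: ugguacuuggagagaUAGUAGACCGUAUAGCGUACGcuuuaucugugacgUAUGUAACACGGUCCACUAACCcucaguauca
Mir380: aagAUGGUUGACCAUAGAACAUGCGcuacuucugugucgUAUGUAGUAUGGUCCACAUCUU

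Signals are given as log2 of the scaled signal, where 0 is the 75th percentile of the probes detected on all arrays and -5.30 is a common floor to which dimmer signals were raised. A miRNA counted as detected on an array when the scanner called at least 1 of its probes well above background, and it was tested when 1 probe was so on all 3 arrays of a group. Levels of different miRNAs are not set against each other, because their probes differ. The percentile was 786 to 1772 intensity units against a local background of 49.0 to 55.5, between 187 and 233 names were detected per array, and 0 spots were saturated. Arrays of 1 group correlated across tested miRNAs at r = 0.985 to 0.992 and arrays of different groups at 0.846 to 0.883. The authors also deposited a log2 table whose columns carry sample numbers. By its values, each of the 6 columns equals an array of another number, its columns 1 to 3 the wound arrays 3, 4 and 6 and its columns 4 to 6 the skin arrays 1, 2 and 5. Groups here follow the array titles.

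The comparison asked which of these miRNAs differ between wound myofibroblasts and the weakly GFP-positive cells of skin, in a study that centres on the domain. Of the 12 names 10 were detected on all 3 wound arrays and 5 on all 3 skin arrays, and the other 2, miR-380-5p and miR-758-3p, on no array. In limma 9 of the 10 tested were higher in the wound cells at a Benjamini-Hochberg adjusted p under 0.05 and 0 were lower (0 also at an unadjusted p under 0.05). Over all 222 tested miRNAs the share called higher was 44.1%, and the share called in either direction 64.9%. The 5 members not detected in skin passed the filter through the wound arrays alone and could hardly come out lower. Among the 5 members detected on all arrays 4 were higher, against 58 of the 156 such miRNAs overall. The median difference of the 10 tested was 2.47, and over all tested miRNAs it was 0.38.

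**Figure D1:**
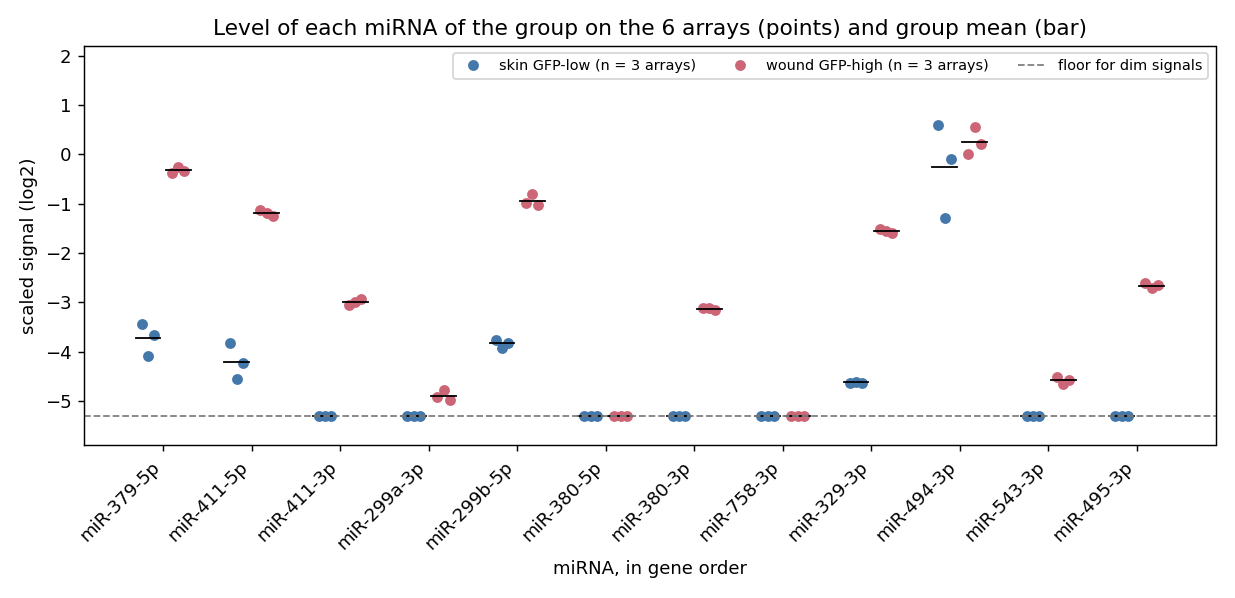
Scaled signal (log2) of the 12 miRNAs of the group in gene order on the 3 skin arrays (blue) and the 3 wound arrays (red), with group means as bars and the floor of -5.30 as a dashed line. In 9 miRNAs all wound points lie above all skin points, as in 48.6% of all tested miRNAs. For miR-411-3p, miR-299a-3p, miR-380-3p, miR-543-3p and miR-495-3p all skin points lie at the floor, so their separation follows from the filter and the floor. In miR-494-3p the groups overlap, and miR-380-5p and miR-758-3p stay at the floor throughout.

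mmu-miR-379-5p, the arm of the first hairpin in the stretch, was -3.44, -4.10 and -3.66 in skin preparations 1, 2 and 5. Wound preparations 3, 4 and 6 had -0.37, -0.25 and -0.33. In unscaled intensity units these were 136.6, 72.7 and 139.9 against 606.8, 921.3 and 903.6. The wound arrays lay close together after scaling and far above the skin arrays, of which preparation 2 was lowest. The group means were -3.73 ± 0.33 (SD, n = 3) and -0.32 ± 0.063 (n = 3). The difference was 10.7-fold (95% interval 7.76 to 14.7), or 3.42 on the log2 scale, with an adjusted p of 4.7e-05 in limma.

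miR-411-5p, whose seed is nearest to that of miR-379-5p, had the same order of skin arrays as that miRNA. It was -3.83, -4.56 and -4.24 in skin preparations 1, 2 and 5 and -1.13, -1.18 and -1.25 in wound preparations 3, 4 and 6. The groups did not overlap, and skin preparation 2 was again the lowest. The difference was 8.13-fold (95% interval 5.73 to 11.5, adjusted p = 0.00011 in limma). Of all tested miRNAs, 48.6% had every wound array above every skin array, so the lack of overlap is common on these arrays.

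The other arm of the same hairpin, miR-411-3p, was below the detection limit on all skin arrays. Its scaled signal, before any floor and on the linear scale, was 0.00504, 0.00304 and 0.00567 in skin and 0.120, 0.125 and 0.130 in the wound preparations. The 3p arm thus crossed the detection limit between the groups, with wound levels of -3.06, -2.99 and -2.94 on the log2 scale. It was at least 5.57-fold higher in wound. The limma test used floored values instead, a 4.94-fold difference (adjusted p = 1.3e-06). Likewise, the p-values beside the bounds of other members below belong to floored differences. Both arms of miR-411 were higher, the 5p arm as a measured fold and the 3p arm as a bound.

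Of miR-380 only the 3p arm was detected. Its 5p arm, known as a repressor of p53 in neuroblastoma, was below background on all 6 arrays, with linear scaled signals of -0.00762 to -0.00294. The 3p arm, mmu-miR-380-3p, was 0.00546, 0.00370 and 0.00429 in skin preparations 1, 2 and 5 and 0.115, 0.116 and 0.113 in the wound preparations. The 3 wound values were nearly the same, at -3.13, -3.11 and -3.15 on the log2 scale. It was at least 5.09-fold higher in wound (floored difference 4.51-fold, adjusted p = 5.3e-07 in limma), and no level or difference can be given for the 5p arm.

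mmu-miR-329-3p had the smallest spread of the members detected in both groups. It was -4.63, -4.61 and -4.64 in skin preparations 1, 2 and 5 and -1.52, -1.55 and -1.60 in the wound preparations. Skin preparation 2, the lowest for miR-379-5p and miR-411-5p, did not stand apart for this miRNA. The difference was 8.43-fold (95% interval 7.90 to 8.99, adjusted p = 5.3e-07 in limma).

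miR-299b-5p was -3.76, -3.92 and -3.82 in skin preparations 1, 2 and 5 and -0.99, -0.79 and -1.03 in the wound preparations. It rose 7.44-fold (95% interval 6.41 to 8.65, adjusted p = 5.0e-06 in limma). As its sequence is contained in miR-299a-5p, the signal cannot be assigned to either of the 2 overlapping genes. miR-299a-3p, from the opposite arm of Mir299a, reached only -4.92, -4.78 and -4.98 in the wound preparations and was not detected in skin. It was at least 1.5-fold higher (floored difference 1.33-fold, adjusted p = 0.0026 in limma), a call that was lost under each of 4 other scalings. The 18 bases of miR-299b-3p are contained in it, so this signal cannot be assigned to either gene alone.

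miR-495-3p and miR-543-3p, which share their 12 last bases, were both detected in the wound cells alone. miR-495-3p had linear scaled signals of 0.0100, 0.00951 and 0.00964 in skin and 0.163, 0.152 and 0.159 in wound preparations 3, 4 and 6. It was at least 7.04-fold higher in wound (floored difference 6.23-fold, adjusted p = 5.3e-07 in limma), the largest bound in the group. miR-543-3p went from 0.00142, 0.00199 and 0.00168 to 0.0439, 0.0395 and 0.0419. It was at least 1.86-fold higher (floored difference 1.65-fold, adjusted p = 0.00013 in limma), a call also lost under the 4 other scalings. For the 5 members at the floor in skin no spread was measured there, which makes their p-values too small.

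mmu-miR-494-3p was the tested member that was not called. It was 0.60, -1.29 and -0.085 in skin preparations 1, 2 and 5 and 0.0028, 0.56 and 0.21 in wound preparations 3, 4 and 6. The groups overlapped, with the highest and the lowest value of all 6 arrays both in skin. Without any scaling the intensities were 2248, 507.4 and 1671 in skin and 787.9, 1616 and 1315 in wound, well above the local background on every array. The skin SD of 0.96 was the largest among the tested members. The difference was 1.43-fold with a 95% interval of 0.564 to 3.64 (0.52 on the log2 scale, adjusted p = 0.42 in limma). It was 0.95 without skin preparation 1 and 0.0022 without skin preparation 2, and it turned sign under 3 other scalings.

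**Figure D2:**
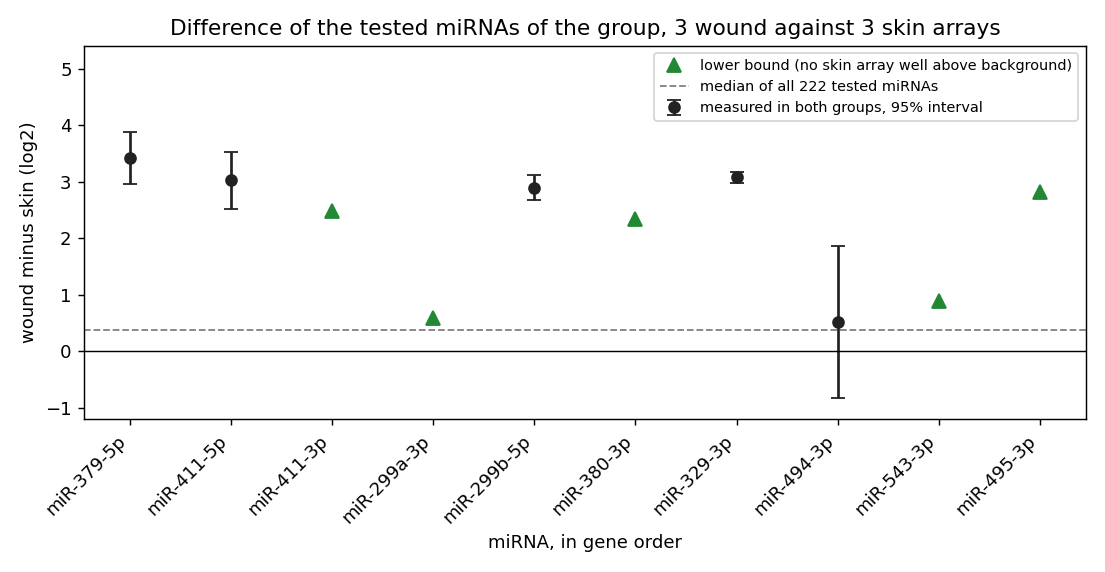
Wound minus skin difference (log2) of the 10 tested miRNAs in gene order: circles with 95% intervals for miRNAs detected in both groups, triangles for lower bounds where no skin array was well above background, and a dashed line at 0.38, the median of all tested miRNAs. miR-379-5p, miR-411-5p, miR-299b-5p and miR-329-3p lie near 3, and the interval of miR-494-3p spans 0.

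The 4 called members that were detected in both groups had log2 differences of 3.42, 3.07, 3.02 and 2.90, in the order miR-379-5p, miR-329-3p, miR-411-5p and miR-299b-5p. The 95% intervals of neighbours in this order overlapped. Within an array the signal of miR-379-5p was set against each of the 4 others detected in both groups, a quantity that no scaling factor per array can move. Relative to miR-494-3p it was -4.04, -2.80 and -3.58 in skin preparations 1, 2 and 5 and -0.38, -0.81 and -0.54 in the wound preparations. The ratio of these miRNAs therefore changed by 2.90 on the log2 scale, with no overlap between groups. Relative to miR-299b-5p, miR-411-5p and miR-329-3p it changed by 0.52, 0.39 and 0.34, the last with overlapping groups. Exact two-sided permutation tests over the arrays gave p = 0.1 for miR-494-3p, miR-299b-5p and miR-411-5p and 0.2 for miR-329-3p (adjusted over the 4 comparisons 0.133 and 0.2), and 3 against 3 arrays cannot give less than 0.1.

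The probes of a miRNA did not always see it alike. Of the 30 probes of the group 18 were well above background on all wound arrays, 7 on all skin arrays and 12 on no array. For miR-299a-3p 1 of 4 probes saw the wound cells: its linear scaled signal was 0.0155, 0.0127 and 0.0140 in skin and 0.135, 0.141 and 0.121 in the wound preparations, at least 5.87-fold higher. The other 3 probes had no signal well above background, and their mean with the first gives the small difference above. For miR-543-3p 1 of 2 probes was detected, at least 2.82-fold higher in wound. The probes of miR-495-3p gave bounds of 3.11-fold and 10.97-fold, and those of miR-411-3p 2.43-fold and 8.71-fold. For miR-329-3p 1 of 2 probes was detected in skin, with a difference of 8.32-fold. The other was detected on the wound arrays alone, at least 7.14-fold higher, so the skin detection of miR-329-3p rests on 1 probe.

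Probes detected in skin were in closer accord. The 2 probes of miR-379-5p differed between groups by 3.50 and 3.37, those of miR-411-5p by 2.99 and 3.06, and those of miR-299b-5p by 2.99 and 2.87. The 2 probes of miR-494-3p gave 0.51 and 0.55. Both probes of miR-494-3p thus gave small differences, which were not tested probe by probe. Within a wound array the spots of a detected probe varied by 2.69% to 16.0% (coefficient of variation, median over the 3 arrays).

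**Figure D3:**
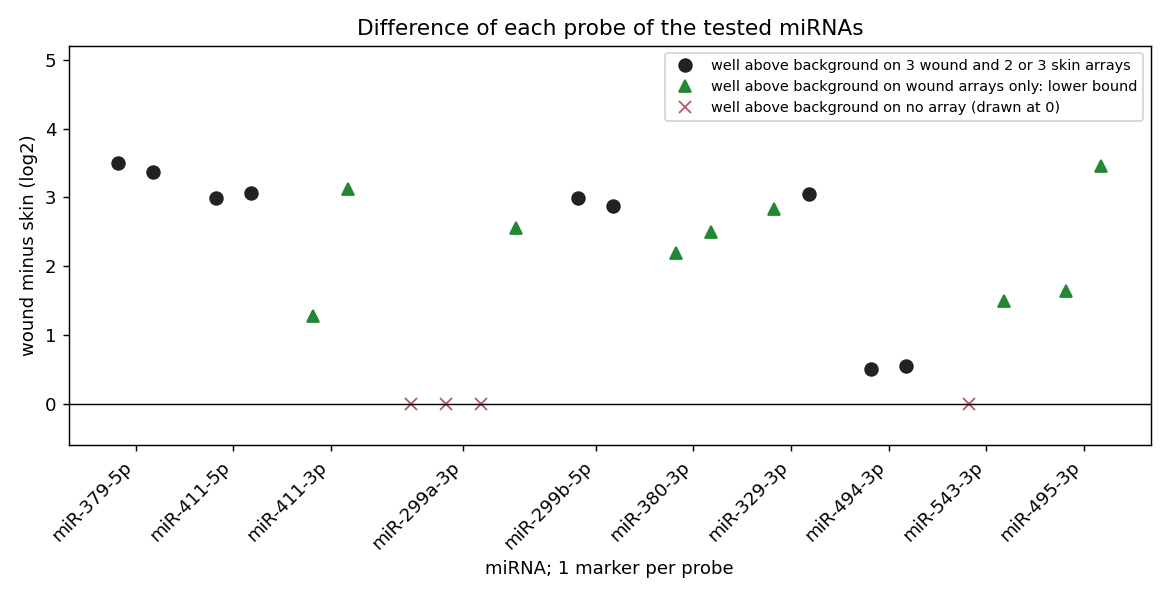
Wound minus skin difference (log2) of each probe of the 10 tested miRNAs: circles for probes detected on 3 wound and on 2 or 3 skin arrays, triangles for lower bounds of probes detected on the wound arrays alone, and crosses at 0 for probes detected on no array. The probes of miR-379-5p lie at 3.50 and 3.37, whereas 3 of the 4 probes of miR-299a-3p carry no detected signal.

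The size of these differences moved with the scaling. Under the 75th percentile of all probes, the median of all probes, quantile normalization and no scaling, the median of all tested miRNAs shifted by -0.57, -0.47, -0.38 and -0.46, and the higher share of all calls, 68.1% in the main setting, became 40.6%, 46.2%, 51.1% and 50.0%. Against this, miR-379-5p ranged from 2.73 to 3.42 over the 5 scalings, miR-329-3p from 2.39 to 3.07, miR-411-5p from 2.34 to 3.02 and miR-299b-5p from 2.21 to 2.90. miR-495-3p, miR-411-3p and miR-380-3p ranged from 2.17 to 2.64, from 1.83 to 2.30 and from 1.70 to 2.17. For these 3 the values are differences from the common floor. They lie below the bounds given above, which use each skin array's own lowest detected signal. All 7 miRNAs were called higher under all 5 scalings, and 0 members were called lower under any in limma (0 also at an unadjusted p under 0.05). The background correction mattered more: the all-miRNA median under normexp was 1.03, and the median of the 10 members, 1.33, lay 0.29 above it, against 2.09 in the main setting. miR-379-5p, miR-411-5p, miR-299b-5p and miR-329-3p were still called higher there, and the 5 other called members were not (adjusted p = 0.12 to 0.173 in limma). After subtraction of the all-miRNA median, the main differences were 3.04 for miR-379-5p and 0.030 for miR-299a-3p.

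**Figure D4:**
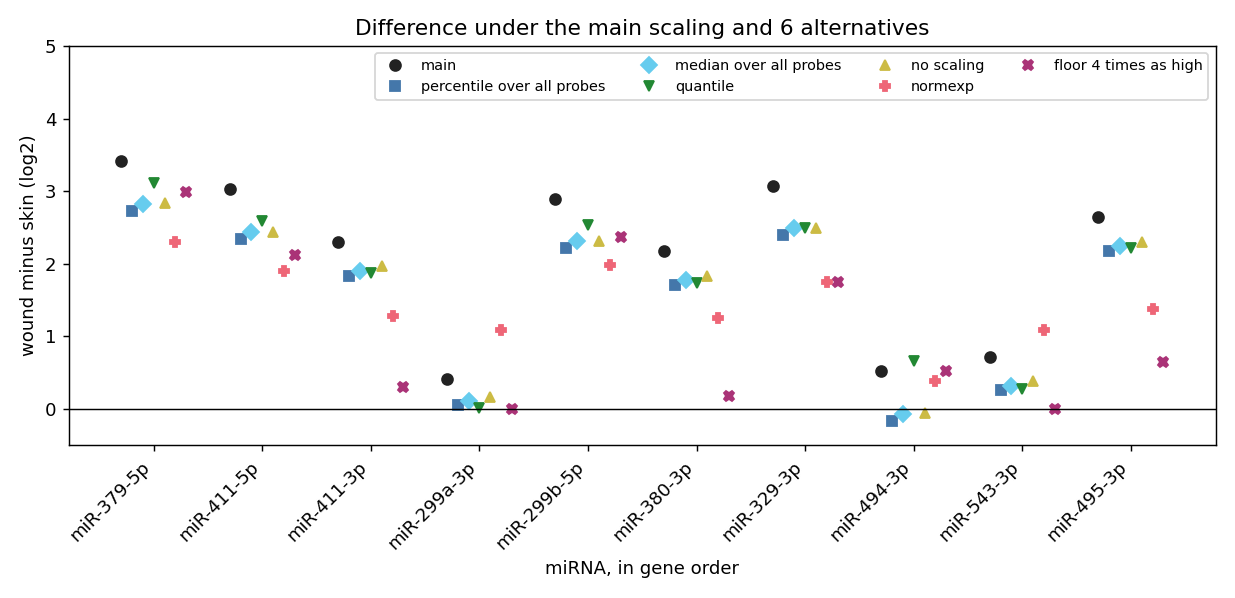
Wound minus skin difference (log2) of the 10 tested miRNAs under the main scaling (black), 4 other scalings, normexp background correction and a floor 4 times as high. miR-379-5p stays between 2.31 and 3.42, miR-494-3p falls on both sides of 0, and miR-299a-3p and miR-543-3p reach 0 with the higher floor. For miRNAs not detected in skin the floored difference is drawn, not the bound.

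As a reference other than the percentile, each array's signals were set against the median of the 182 tested miRNAs outside the domain. On that scale miR-379-5p was -0.091, -0.93 and -0.66 in skin preparations 1, 2 and 5 and 2.76, 2.77 and 2.91 in the wound preparations. The difference was 3.37, against 3.42 with the percentile. Of the 5 members detected on all 6 arrays, miR-379-5p, miR-411-5p, miR-299b-5p and miR-329-3p had every wound array above every skin array on this scale (p = 0.1 each in the exact two-sided permutation test, the smallest it allows), and miR-494-3p overlapped (p = 0.6). The same separation held for 43.7% of all 222 tested miRNAs and for 36.5% of the 156 detected on all arrays. The 5 members at the floor in skin are separated through the filter and the floor, so nothing is read from theirs.

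Arms of neighbouring miRNA genes were not detected where the array has a name for them, and the other arms were not measured. Of the 4 other miRNA genes within the stretch 5 arms are on the array, miR-1197-3p, miR-323-5p, miR-323-3p, miR-679-5p and miR-1193-3p, and none was well above background on any array. The same held for miR-667-3p, whose gene follows Mir495, and for miR-882, the nearest miRNA gene before Mir379 at a distance of 26786 bases. Of 64 further names of the domain 30 were tested, of which 27 were higher and 0 lower in limma, with a median difference of 2.17. All 30 were detected on all 3 wound arrays, but only 10 on all 3 skin arrays. The rest passed the filter through the wound arrays alone, which makes a lower call unlikely. Among the 10 detected on all arrays 9 were higher, with a median difference of 3.10. Outside the domain 62 of 182 tested miRNAs were higher and 46 lower, with a median of 0.14, or 0.13 among those detected on all arrays. The domain list was drawn up with earlier results of these data known, and the study's title names the domain, so these counts are a description.

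For 2 detected members another array name carries the same seed, shown in capitals.
miR-362-3p: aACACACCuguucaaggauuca
miR-1192: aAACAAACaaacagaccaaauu
miR-362-3p, which has the seed of miR-329-3p, was -5.02 ± 0.27 (SD, n = 3) in skin and -4.08 ± 0.21 (n = 3) in the wound cells. It was higher by 0.93 (SE 0.18, adjusted p = 0.0072 in limma), with detection on 2 of 3 skin arrays. miR-1192, which has the seed of miR-495-3p, was not tested, as it was detected on no array.

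The miRNAs with the profile most like miR-379-5p over the 6 arrays were found by the root mean square distance between mean-centred log2 values. The nearest 5 outside the group were miR-322-5p (0.106), miR-377-3p (0.138), miR-127-3p (0.195), miR-382-5p (0.195) and miR-154-3p (0.202). All but miR-322-5p, a miRNA of an X-linked cluster, belong to the domain. miR-154-3p was at the floor on all 3 skin arrays, so its distance rests on the floor there. miR-377-3p and miR-382-5p were each at the floor on 1 skin array. The nearest within the group was miR-411-5p, at 0.211. Like miR-379-5p, miR-322-5p had a wide skin spread, -4.08 ± 0.50 (SD, n = 3), against -0.64 ± 0.12 in the wound cells.

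miRNAs of other cell types were checked on the same arrays. Of 11 mesenchymal names (miR-143, miR-145, miR-199, miR-214, miR-152 and miR-22) 9 were detected on all skin arrays and 10 on all wound arrays, with summed linear scaled signals of 23.8 to 27.6 and 19.7 to 21.7. That lower sum rests mostly on miR-199a-3p, at 11.8 to 15.9 in skin and 8.85 to 9.87 in wound. In limma 4 of the 10 tested mesenchymal names were higher (miR-143-3p, miR-145a-5p, miR-152-3p and miR-22-5p), 2 were lower (miR-199a-3p and miR-199b-5p), and the median difference was 0.22. The sum of 12 epithelial names was 0.120 to 0.204 in skin and 0.00513 to 0.00920 in wound, with miR-203-3p and miR-205-5p detected in skin alone and 10 names on no array. The sum of 8 blood cell names was 0.0393 to 0.0479 in skin and 0.0861 to 0.0998 in wound. Of these 8 names 6 were detected on no array, among them both arms of miR-142, and miR-223-3p, which mark white blood cells. miR-451a was detected on 2 skin arrays and 0 wound arrays and was not tested. In contrast, miR-155-5p, which stimulated cells of other types also express, was higher by 1.30 (adjusted p = 0.00011 in limma). It was detected on 2 skin arrays and on all 3 wound arrays. Its skin values all lay at the floor, so that difference depends on the floor and its p-value is too small. The 2 endothelial names (miR-126) summed to 0.0363 to 0.0583 in skin and 0.0555 to 0.0773 in wound. Of these, miR-126-3p was detected on all 3 skin and all 3 wound arrays, although the cells were sorted as negative for CD31. Its difference of 0.50 was not called (adjusted p = 0.109 in limma), and miR-126-5p was detected on no array. Of 7 striated muscle names 7, and of 7 neuronal names 6, were detected on no array, and 0 of either list could be tested. The muscle sums were 0.0179 to 0.0285 in skin and 0.0266 to 0.0307 in wound, and the neuronal sums 0.0133 to 0.0254 and 0.0419 to 0.0589. The epithelial, blood, neuronal and mesenchymal sums moved with the groups, and their part in the differences of the miR-379 group was not tested. In bulk RNA, fewer cells of a type and less RNA per cell cannot be told apart.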

How the data were processed

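Each of the 6 preparations gave 1 Agilent miRNA array with 1 colour (Cy3), all on 1 slide. Per the file headers, the deposited intensity values came from Agilent Feature Extraction, background-subtracted per spot and not normalized between arrays. The deposited flags per spot (0 or 1) were used as given. The authors' log2 table equals log2 of the total signal per miRNA minus a constant per array, within 0.001 over 656 of its 691 rows. The sources used here do not give its normalization.

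Spots with outlier flags were left out and the processed signal was averaged per probe (5 to 20 spots a probe, 1928 probes) and scaled, per array, to the 75th percentile of those probes that were well above background on all 6. That status required the scanner's flag on more than 50% of a probe's spots. The linear mean over a miRNA's probes was raised to a floor of 0.0253, the arrays' median of their lowest detected scaled signal, before log2. The floor shrinks differences of dim miRNAs. Groups were compared with limma 3.58.1 in R 4.3.3 (lmFit and eBayes, two-sided) over 222 tested miRNAs with Benjamini-Hochberg adjustment at 0.05. The script was tested on simulated data.

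An "at least" fold sets the mean of the wound arrays against the mean of, per skin array, whichever was higher, the array's lowest detected signal or the dim signal itself. Named are all members, array names that share the seed of a detected member, the 5 nearest profiles, neighbouring genes and the marker miRNAs. Members and lists were chosen with earlier results of these data known. Precision is limited by the number of arrays. Alternatives changed scaling, background correction (normexp, offset 50, on median signals), signal column, probe summary, floor, filter, limma options, slide row, array set and deposited table. Figures were drawn with matplotlib 3.10.9.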

Additional observations from a re-analysis of the deposited data

How the results depend on the processing

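The count of 9 higher members was 7 to 9 under the other scalings, signal column, probe summaries, floors, filter removal, limma options and slide row. It was 4 with normexp, where all calls numbered 23, 4 when only miRNAs detected on all 6 arrays were tested, 5 members among them, and 7 without miR-299a and miR-299b, an alternative chosen after seeing the data. All calls numbered 78 with a floor 4 times as high. Without 1 array at a time 9 members were called each time and the median difference was 2.46 to 2.48. The median difference of 2.47 became 2.00 (percentile of all probes), 2.07 (median), 2.05 (quantile), 2.13 (no scaling), 1.33 (normexp), 2.89 (total signal), 2.27 (mean of log2 over probes), 2.91 (brightest probe), 0.58 (floor 4 times as high), 3.05 (floor lower by the same factor), 3.02 (detected on all arrays) and 2.24 (no filter), and the cause was not tested. miR-494-3p turned to -0.17, -0.069 and -0.062 with the percentile of all probes, the median and no scaling. The authors' table was also read by its column numbers, which mix the groups of the array titles. There 0 members and 0 of the 202 tested miRNAs were called in limma (0 and 1 at an unadjusted p under 0.05). The median of the members was -0.89. miR-299a-3p, miR-299b-5p, miR-329-3p and miR-379-5p were then -0.96, -0.73, -0.83 and -0.67, miR-380-3p, miR-411-3p and miR-411-5p -3.28, -3.27 and -0.57, and miR-495-3p and miR-543-3p -1.25 and -2.51. As each set of columns holds both wound and skin arrays, these values do not measure the difference between wound and skin. No paired analysis was possible because the groups share no replicate number. Signals near background limit miR-299a-3p and miR-543-3p, and no statement can be made on miR-380-5p and miR-758-3p.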
